A study of Mus musculus with 9 samples.

Results

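Hopx and Scpep1 are 2 of the 24060 genes in the expression table of the activated R7 CD8 T cell clones. They were chosen by their levels in the R7-I and R7-III libraries, in TPM (transcript abundance relative to a fixed library total), which lay far apart, so that difference is given as a description without a test. Both were among the 11330 genes that passed the filter on low values, a level above 1 TPM in at least 1 library. Hopx passed through its R7-I libraries alone, so all of its differences are given without a p. Scpep1 was chosen by R7-I and R7-III, and where R7-II lay for that gene was tested. The other side of each of those tests had entered the choice.

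R7-I, R7-II and R7-III are CD8 T cells from 3 lines of transnuclear mice on a Rag2-proficient BALB/c background. Each line descends from the nucleus of 1 T cell and carries the rearranged receptor of that cell, specific for the ROP7 peptide of Toxoplasma gondii on H-2Ld, so each clone stands for 1 receptor and 1 mouse line. Splenocytes of every line were kept overnight with ROP7 peptide at 10 µM in medium with IL-2 at 10 ng/ml, and live CD3+ CD8+ cells binding the H-2Ld-Rop7 tetramer were sorted for polyA RNA sequencing, with 3 libraries per clone and 9 in all. Affinity for the peptide is highest in R7-I, intermediate in R7-III and lowest in R7-II by the submitters' account. The paper reports that order for purified proteins. For receptors held in the cell membrane it reports similar affinities of R7-I and R7-III, and a lower one of R7-II. All 9 libraries were from peptide-stimulated cells, and unstimulated cells are not analysed here. The ages and sexes of the mice were not given. The libraries are labelled biological replicates, and nothing more was said of how far they were separate animals or cultures, so the p-values measure the spread between these libraries.

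Hopx encodes a small homeodomain protein that lacks the residues needed to bind DNA. It acts through partners: it binds serum response factor (SRF) and keeps it from its target genes, and it brings in histone deacetylases such as HDAC2. In T cells it is known from effector, memory and tissue-resident cells. Scpep1 encodes a serine carboxypeptidase that is secreted or held in lysosomes, was named for its induction by retinoids, and resembles cathepsin A (Ctsa), the lysosomal carboxypeptidase that also shields other lysosomal enzymes.

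Both genes lie on the minus strand of the mouse genome (GRCm38.p6, RefSeq), Hopx at chr5:77086986-77115123 with 3 transcripts and Scpep1 at chr11:88924020-88955442 with 1. The 250 bases before the most upstream start of each gene are shown because they precede the annotated start of the measured RNA, though no binding was measured there. In the Hopx stretch, at chr5:77115124-77115373, capitals mark a CArG box, the letters that SRF binds. In the Scpep1 stretch, at chr11:88955443-88955692, they mark GC boxes (GGGCGG on the other strand).
Hopx: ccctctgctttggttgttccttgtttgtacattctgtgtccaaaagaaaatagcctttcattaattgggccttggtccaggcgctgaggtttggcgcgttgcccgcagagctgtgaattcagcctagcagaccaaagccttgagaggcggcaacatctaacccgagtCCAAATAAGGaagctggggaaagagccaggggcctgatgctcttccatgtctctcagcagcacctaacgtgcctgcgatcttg
Scpep1: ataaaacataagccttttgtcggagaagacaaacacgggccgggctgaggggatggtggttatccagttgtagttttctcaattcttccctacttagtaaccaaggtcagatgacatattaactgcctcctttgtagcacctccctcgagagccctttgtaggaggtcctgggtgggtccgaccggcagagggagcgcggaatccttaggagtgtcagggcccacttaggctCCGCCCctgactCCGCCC

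The CArG box ran from base 83 to base 74 before the Hopx start. On either strand, 1.47% of the 32851 mouse windows of that length held one. The 2 GC boxes of Scpep1 covered bases 18 to 13 and 6 to 1 before its start, and GGGCGG was present in 32.7% of windows. Neither stretch held the AP-1 site TGANTCA, found in 6.75% of windows, or the direct-repeat retinoic acid response element, found in 0.0883%. Motifs were searched on both strands. Hopx has a second start region at chr5:77095268-77095517, in which none of these motifs was found. The levels are summed per gene, so the starts cannot be told apart.

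Hopx was read well above 1 TPM in R7-I and close to 0 in the other clones. Its level was 11.2, 14.8 and 10.1 TPM in the 3 R7-I libraries, 0.09, 0.19 and 0.32 in R7-II, and 0.14, 0 and 0.09 in R7-III. The R7-I libraries stood apart from the other 6, and the ranges of R7-II and R7-III overlapped. The means were 12.0 ± 2.42 TPM in R7-I, 0.2 ± 0.115 in R7-II and 0.0767 ± 0.0709 in R7-III (SD, n = 3 each). In bulk RNA, fewer cells with a transcript and less of it per cell cannot be told apart.

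Scpep1 was ordered the other way round. Its level was 10.4, 10.3 and 8.97 TPM in the R7-I libraries, 51.2, 55.1 and 45.4 in R7-II, and 59.9, 64.0 and 68.5 in R7-III. No 2 clones overlapped, with R7-I lowest, R7-II next and R7-III highest. The means were 9.89 ± 0.797 TPM in R7-I, 50.6 ± 4.87 in R7-II and 64.2 ± 4.30 in R7-III (SD, n = 3 each). In R7-I both genes were thus near 10 TPM, and in the other clones Hopx was almost unread while Scpep1 was read at 45.4 TPM or more. The mean of Scpep1 exceeded that of 34.7% of the genes tested in R7-I, 69.5% in R7-II and 76.7% in R7-III.

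**Figure D1:**
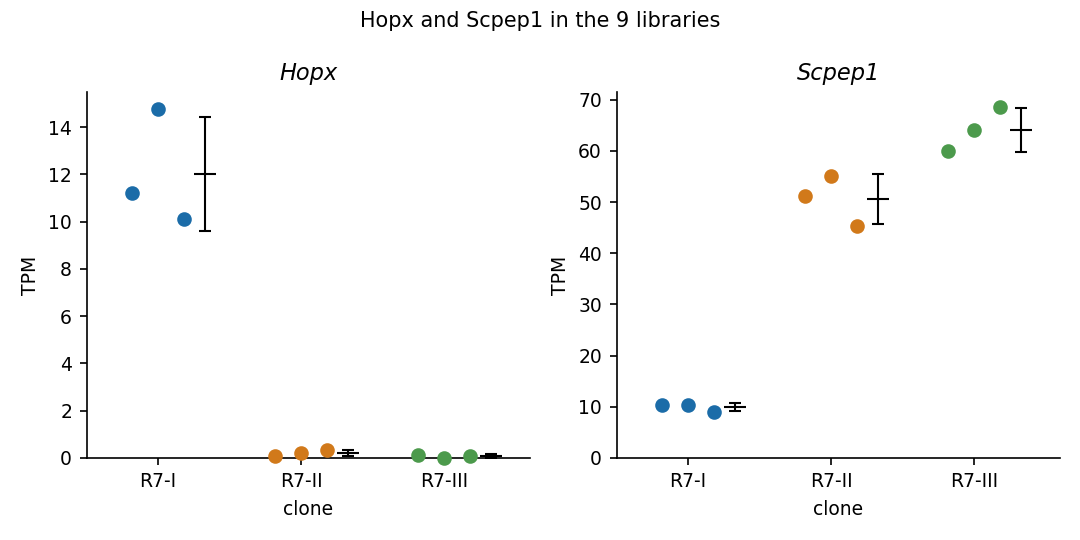
TPM of Hopx (left) and Scpep1 (right) in each of the 9 libraries, as points by clone, with the mean and SD as black bars (n = 3). The 3 R7-I libraries lie between 10.1 and 14.8 TPM for Hopx and between 8.97 and 10.4 TPM for Scpep1, apart from the other 6 in both panels.

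Between R7-III and R7-I, the contrast that chose them, Hopx was lower by a log2 fold change of -3.58 on the log2(TPM + 1) scale. By the means it was 157 times higher in R7-I, a ratio that rests on the low R7-III values: it was 267 without R7-III replicate 1, 105 without R7-III replicate 2 and 139 to 172 when another library of these clones was left out. The log2(TPM + 1) scale adds 1 TPM to every value and so understates the fold of a gene this low. Scpep1 was higher in R7-III by 2.58, or 6.49 times by the means. Over all genes tested, 8.41% passed an adjusted p of 0.01 in this contrast (limma with Benjamini-Hochberg adjustment), 6.96% higher and 1.45% lower in R7-III, and 0.989% passed with more than a 2-fold change.

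For both genes R7-II lay with R7-III and away from R7-I, although R7-II and R7-III differ widely elsewhere. In R7-II, Hopx lay below its R7-I level by a log2 fold change of -3.43, with every R7-II library below every R7-I library. A gene that passed the filter through R7-I alone had to be lower elsewhere, so this is a description. In R7-II, Scpep1 lay above its R7-I level by 2.24 (SE 0.0796, limma adjusted p 2.12e-08), or 5.11 times by the means. In this contrast 56.1% of all genes tested were called, 40.6% as higher and 15.5% as lower in R7-II, and 7.25% with more than a 2-fold change. The R7-I libraries had entered the choice of Scpep1. A gene chosen for a low R7-I level is favoured to lie higher elsewhere, so this p is no independent support.

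Between R7-II and R7-III, the log2 fold change of Hopx was 0.15, with both clones below the 1 TPM of the filter, a range in which the log2(TPM + 1) scale leaves little room for a difference. Scpep1 was lower in R7-II than in R7-III by a log2 fold change of -0.34 (95% interval -0.52 to -0.16, limma adjusted p 0.00323), a mean 1.27 times higher in R7-III. Of all genes tested, 53.6% were called between these clones, 35.6% as higher and 18% as lower in R7-II, and 7.58% with more than a 2-fold change. The Scpep1 call was lost in 3 of 9 fits that left out 1 library: -0.27 with adjusted p 0.0123 without R7-II replicate 3, -0.34 with 0.0113 without R7-III replicate 2 and -0.29 with 0.0161 without R7-III replicate 3. Here the R7-III libraries had entered the choice, which favours a lower level in R7-II, so this p is no independent support either.

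**Figure D2:**
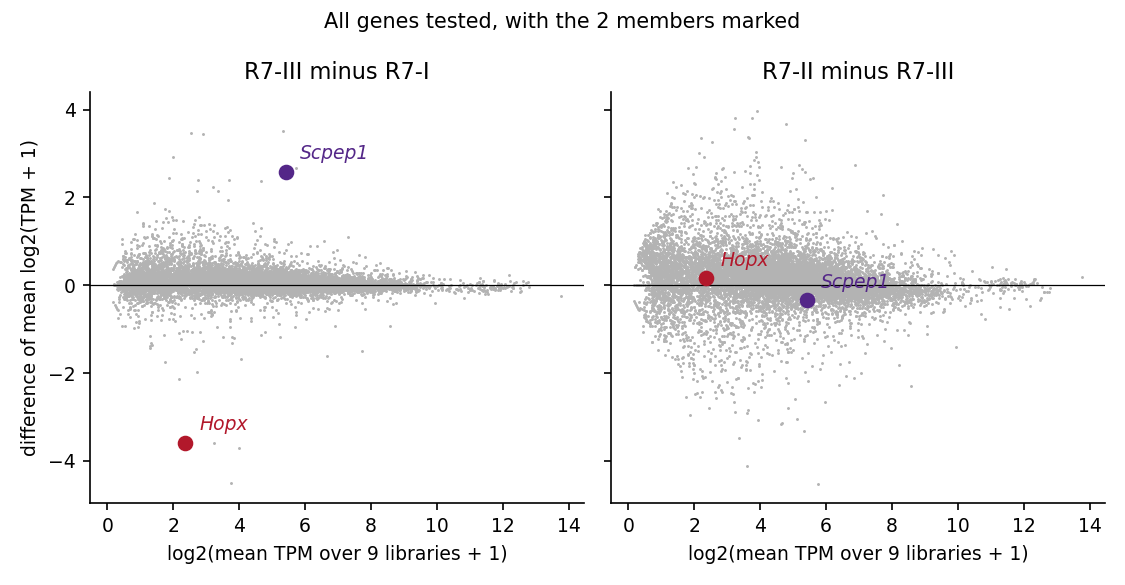
Difference of mean log2(TPM + 1) against the log2 of the mean TPM plus 1 for the 11330 genes tested (grey), between R7-III and R7-I (left) and between R7-II and R7-III (right), with Hopx and Scpep1 marked. On the left they lie at -3.58 and 2.58, outside most genes of their abundance, and on the right at 0.15 and -0.34, inside the wider cloud.

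Few genes set R7-I apart from both other clones as these did. The 3 R7-I libraries lay above the other 6 for 564 genes, 4.98% of those tested, and below them for 1940 genes, or 17.1%. For Hopx the gap between the lowest R7-I library and the highest of the rest was 3.08 on the log2 scale, the widest of the 564, and the next was that of Snhg6 at 1.39. For Scpep1 the gap below the rest was 2.03, behind Gm6756 at 3.10 and Tlr1 at 2.26. These ranks describe the choice of the genes and were not tested.

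The profiles nearest to Hopx over the 9 libraries were those of Snhg6, a host gene of small nucleolar RNA, Farp1, a guanine nucleotide exchange factor, Smo, the Hedgehog pathway receptor, the histone gene Hist1h2bj and the granzyme gene Gzmc. The root mean square difference from Hopx, on log2(TPM + 1) centred on each gene's mean, was 0.922 for Snhg6, 0.945 for Farp1, 1.09 for Smo, 1.11 for Hist1h2bj and 1.15 for Gzmc, beside a spread of Hopx about its own mean of 1.66. Snhg6 was read at 175 to 189 TPM in R7-I, 57.1 to 66.1 in R7-II and 55.6 to 59.5 in R7-III. Unlike Hopx, it stayed abundant in every clone. Smo, Farp1, Hist1h2bj and Gzmc were each lowest in R7-II, with R7-III between the other clones. Reads of histone and granzyme genes can be shared between near copies, so the levels of Hist1h2bj and Gzmc are uncertain.

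The profile nearest to Scpep1 was much closer, that of the kinase-dead ephrin receptor gene Ephb6, at a root mean square difference of 0.301 beside a spread of Scpep1 of 1.15. Ephb6 was read at 2.81 to 3.42 TPM in R7-I, 16.2 to 17.7 in R7-II and 14.3 to 15.5 in R7-III. R7-II was thus its highest clone, the reverse of Scpep1. Gm6756 (0.472), the phospholipid flippase gene Atp10d (0.549), Cox6b2 (0.552), which encodes a cytochrome c oxidase subunit, and 9030025P20Rik (0.578) came next. Atp10d ran from 4.83 to 5.18 TPM in R7-I and from 13.0 to 14.6 TPM in the other 6 libraries. None of the 10 genes lies on the chromosome of the member it resembles, though Atp10d lies on chromosome 5, that of Hopx.

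**Figure D3:**
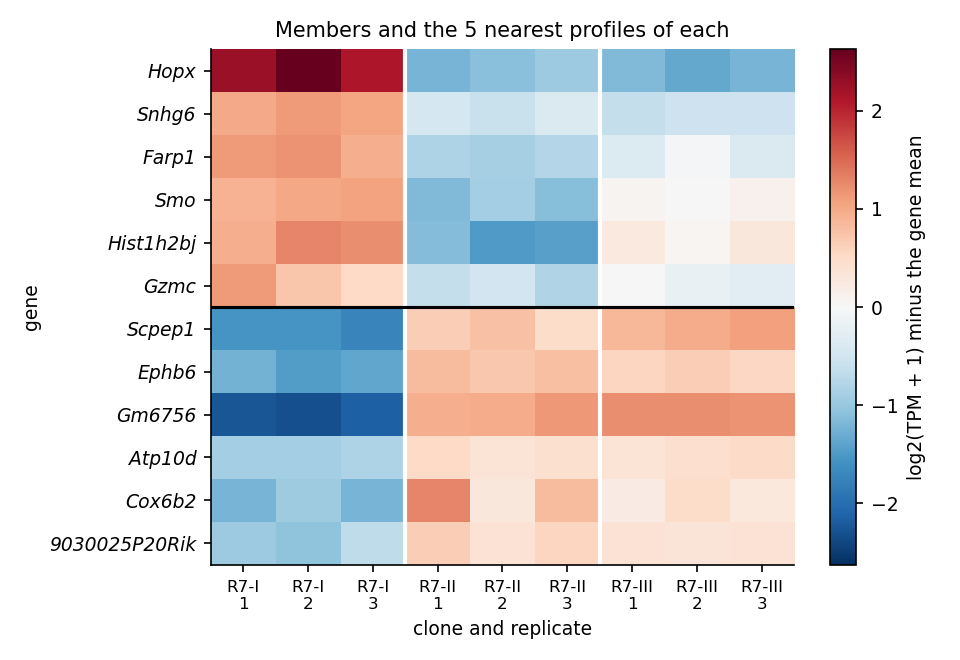
Heat map of log2(TPM + 1) minus the gene's mean in the 9 libraries (columns) for Hopx and Scpep1 and the 5 genes with the nearest profiles of each (rows, nearest first). R7-I is high in the upper block and low in the lower one, and within the upper block R7-III is paler than R7-II for Farp1, Smo, Hist1h2bj and Gzmc.

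Genes of the pathways that Hopx acts in were set beside all genes tested. Srf itself, the transcription factor that HOPX binds, was read at 58.3, 58.3 and 60.2 TPM in R7-I, 58.3, 59.4 and 56.6 in R7-II, and 54.9, 56.2 and 60.1 in R7-III. The 3 ranges overlapped, and the log2 fold change of R7-III against R7-I was -0.05 (SE 0.0412, limma adjusted p 0.479). Of 22 tested genes in a list of 26 SRF cofactors and targets, 1 was called between R7-III and R7-I, beside 8.41% of all genes. The list median was 0.01, beside 0.04 over all genes. That gene was Zyx, which encodes the focal adhesion protein zyxin. Zyx was read at 67.6 to 71.9 TPM in R7-I, 92.2 to 95.0 in R7-III and 124 to 129 in R7-II, and rose by 0.43 in R7-III (SE 0.0338, limma adjusted p 3.2e-05). In the fits that left out 1 library the list held 1 to 3 calls. The actin genes Actb and Actg1, the most abundant of the list, differed by -0.01 and -0.00028 on the log2 scale (limma adjusted p 0.889 and 0.998), and both signs turned under quantile normalization.

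In R7-II, which like R7-III had almost no Hopx RNA, 19 of the 22 were called against R7-I, 18 of them higher and 1 lower, and 15 were called against R7-III, 14 of them higher. The background was 56.1% and 53.6%. The list medians were 0.48 and 0.41, while the medians over all genes were 0.17 and 0.12. Scaling by the median of ratios brought those overall medians to about 0 and left 11 SRF genes higher and 3 lower against R7-I. Myocd and Myl9 were listed at 0 in every library, and Acta2 and Cnn1 stayed below 1 TPM.

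Hdac2, whose product HOPX brings to its targets, was read at 157, 150 and 156 TPM in R7-I and at 141, 147 and 152 in R7-III. The ranges overlapped, with a log2 fold change of -0.08 (SE 0.0408, limma adjusted p 0.222). Among 21 genes of class I histone deacetylases and the NuRD, Sin3 and CoREST complexes, 3 were called between R7-III and R7-I, or 14.3% beside 8.41% of all genes. All were higher in R7-III, but under the median of ratios none of them was called. They were the chromatin remodeller gene Chd3 (0.38, limma adjusted p 0.00888), Hdac1 (0.21, limma adjusted p 0.00503) and the histone chaperone gene Rbbp7 (0.13, limma adjusted p 0.0031). Chd4, the most abundant gene of the list, differed by -0.07 (limma adjusted p 0.131) and was called lower under the median of ratios (-0.12, limma adjusted p 0.00561). Each of the 3 lost its call in at least 5 of 9 fits that left out 1 library, and in those fits the list held 0 to 3 calls. Hdac2 was lower in R7-II than in R7-I by -0.19 (limma adjusted p 0.00195), at 129, 139 and 139 TPM, with 11 of the 21 called in that contrast beside 56.1% of all genes, 9 higher and 2 lower. Under the median of ratios the split there was 7 higher and 10 lower, so the list gave no direction that held across scalings.

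Hopx is known as a gene of resident memory cells. The study followed CD103, the product of Itgae, as surface protein on transferred cells in the brain of infected mice. Here Itgae is RNA of cells sorted after overnight culture of splenocytes, so it is no measure of that protein or of residency. Itgae was read at 10.7, 8.91 and 13.6 TPM in R7-I, 6.81, 7.66 and 6.94 in R7-III, and 55.6, 41.0 and 61.3 in R7-II. Every R7-I library lay above every R7-III library, but the log2 fold change of -0.55 (SE 0.156) did not pass, with a limma adjusted p of 0.032. R7-II, which had almost no Hopx RNA, had the highest Itgae level, by 2.15 over R7-I (limma adjusted p 1.03e-06) and 2.70 over R7-III (limma adjusted p 2.46e-07). By the means, both genes were higher in R7-I than in R7-III, while R7-II was highest for Itgae and not for Hopx. A link between them was not tested.

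Of 10 tested genes in the residency list of 15, 0 were called by limma between R7-III and R7-I beside 8.41% of all genes, 3 were under an adjusted p of 0.05 and 6 under an unadjusted p of 0.05. Itga1, Prdm1, Cdh1 and Cd101 stayed below 1 TPM, and Zfp683 was not in the table. In R7-II 7 were called against each of the other clones, 2 higher and 5 lower, beside 56.1% of all genes against R7-I and 53.6% against R7-III. The lower ones included the lymphotactin gene Xcl1, at a mean of 2165 TPM in R7-II, 3171 in R7-III and 3625 in R7-I, and Rgs1, a regulator of G protein signalling, at 119 in R7-II, 355 in R7-I and 405 in R7-III. Xcl1 was lower in R7-II than in R7-I by -0.74 (limma adjusted p 6.6e-07), and Rgs1 by -1.62 (limma adjusted p 1.52e-05).

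Among effector and cytotoxic genes, 14 of the 18 listed were tested. Between R7-III and R7-I 2 were called, or 14.3% beside 8.41% of all genes, both of them chemokine genes: Ccl4 fell by 0.30 in R7-III (limma adjusted p 0.000794), and Ccl5 rose by 1.09 (limma adjusted p 0.00696), from a mean of 4.55 to 10.9 TPM. The Ccl5 call held in 3 of 9 fits without 1 library. Gzmb, the granzyme B gene, averaged 698 ± 175 TPM in R7-I and 366 ± 91.0 in R7-III (SD, n = 3 each), a log2 fold change of -0.93 that did not pass (limma adjusted p 0.0184). In R7-II, 8 were called against R7-I, or 57.1% beside 56.1% of all genes, 7 of them lower, with Gzmb at 73.8 ± 15.2 TPM and a log2 fold change of -3.21 (limma adjusted p 9.23e-07). For Gzmb, R7-III lay between the other clones, whereas for Hopx it lay at the bottom with R7-II.

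Of the relatives of Scpep1, Ctsa was read at 28.3, 27.2 and 29.0 TPM in R7-I, 45.5, 42.1 and 44.9 in R7-II, and 37.9, 35.7 and 37.8 in R7-III. The clones did not overlap, and R7-I was lowest, as for Scpep1, but the order of the others was turned. Ctsa rose in R7-III against R7-I by 0.39 (SE 0.0463, limma adjusted p 4.04e-04), with a call in all 9 fits that left out 1 library. In R7-II it rose by 0.63 (SE 0.0463, limma adjusted p 1.12e-06). Prcp, the prolylcarboxypeptidase gene, was read at 7.42 to 9.22 TPM in R7-I, 8.75 to 10.2 in R7-III and 11.3 to 12.5 in R7-II. Its log2 fold change in R7-III was 0.12 (SE 0.0893, limma adjusted p 0.405).

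Of 18 lysosomal proteases and partners tested, Ctsa was the sole call between R7-III and R7-I, or 5.56% beside 8.41% of all genes, and the list median was 0.09 beside 0.04 over all genes. In R7-II against R7-I 11 were called, or 61.1% beside 56.1% of all genes, 10 of them higher, and under the median of ratios 9 were higher and 4 lower. The aspartic protease gene Ctsd averaged 65.3 ± 2.04 TPM in R7-I, 69.4 ± 0.739 in R7-III and 163 ± 13.3 in R7-II (SD, n = 3 each), a rise of 1.31 in R7-II over R7-I (limma adjusted p 3.33e-08). Ctsz averaged 97.6, 97.9 and 80.6 TPM in R7-I, R7-III and R7-II. Its difference of 0.01 between R7-III and R7-I (limma adjusted p 0.959) turned sign under both other scalings.

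Of 21 genes of retinoid receptors, enzymes, binding proteins and T cell targets, 8 were tested, and 13 stayed at or below 1 TPM, the vitamin A uptake receptor gene Stra6 and the 3 Aldh1a genes for retinoic acid synthesis among them. Between R7-III and R7-I, Itgb7 was the 1 gene of 8 called, beside 8.41% of all genes. It encodes the integrin beta-7 chain that pairs with CD103, averaged 13.2 ± 0.74 TPM in R7-I and 18.2 ± 1.24 in R7-III (SD, n = 3 each), and rose by 0.43 (limma adjusted p 0.00603). The call held in 3 of 9 fits without 1 library. Rxrb, a retinoid X receptor gene, differed by 0.15 (limma adjusted p 0.0574). In R7-II all 8 were called against R7-I, 6 higher and 2 lower, beside 56.1% of all genes. Itgb7 rose there by 2.85 to 102 ± 12.0 TPM (limma adjusted p 1.09e-08), and Crabp2, which carries retinoic acid to its receptor, was lower by -1.63 at 20.7 ± 3.92 TPM (limma adjusted p 8.66e-07). Crabp2 averaged 65.3 TPM in R7-I and 79.2 in R7-III. The difference of Crabp2 between R7-III and R7-I did not pass (0.27, limma adjusted p 0.128). The 6 genes higher in R7-II had their lowest mean in R7-I, as Scpep1 did, and their highest in R7-II. Apart from Itgb7, however, none of them passed between R7-III and R7-I. Their differences there ran from 0.03 for Rarg (limma adjusted p 0.895) to 0.20 for Rara (limma adjusted p 0.0669), beside 2.58 for Scpep1. A part of retinoids in the Scpep1 level was not tested.

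**Figure D4:**
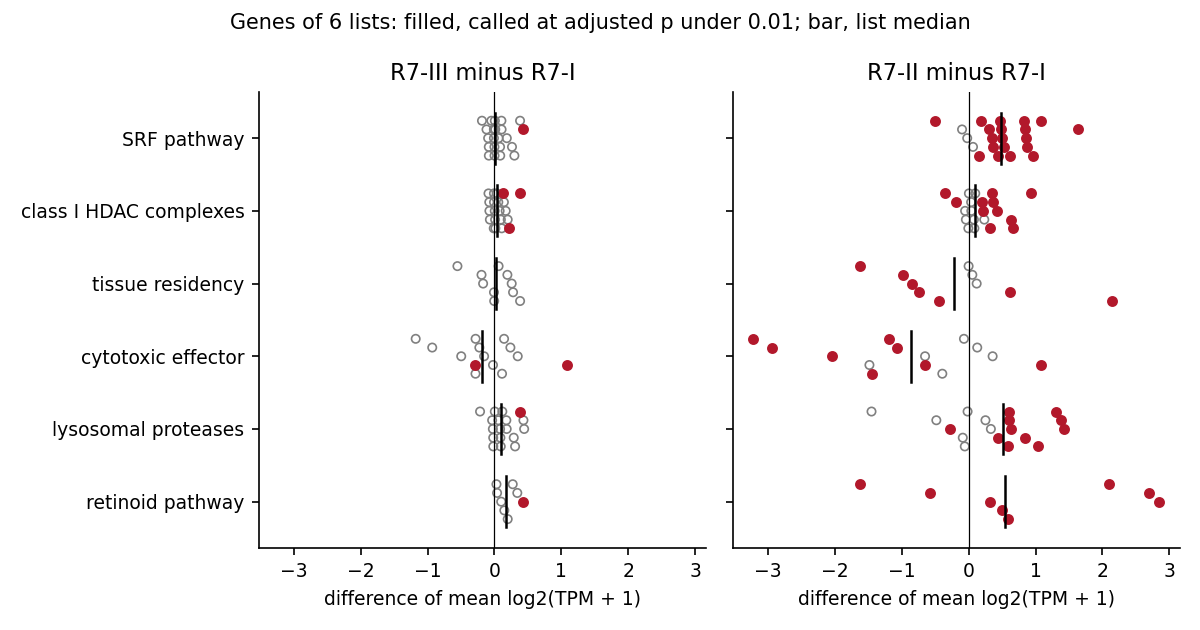
Difference of mean log2(TPM + 1) for the tested genes of 6 lists, between R7-III and R7-I (left) and between R7-II and R7-I (right). Each point is a gene, filled where limma's adjusted p was under 0.01, and the bar is the list median. From top to bottom, 1, 3, 0, 2, 1 and 1 points are filled on the left, where 8.41% of all genes were called. On the right 19, 11, 7, 8, 11 and 8 are filled, where 56.1% of all genes were called.

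Along chromosome 5, 1 of 20 neighbours of Hopx was called in R7-III against R7-I. They reached out to 953 kb on one side and to 11507 kb on the other. Among the 10 nearest tested genes on each side, the 1 called was Paics, a purine synthesis gene 142 kb away from midpoint to midpoint (0.13, limma adjusted p 0.00635), beside 8.41% of all genes. Its call held in 4 of 9 fits without 1 library. The nearest on either side were Arl9, at a mean below 1 TPM in each clone, and Rest, a transcriptional repressor gene, at 13.9 TPM in R7-I and 14.4 in R7-III. The log2 fold change of Rest was 0.05 (limma adjusted p 0.726) and turned sign under both other scalings.

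Along chromosome 11, 6 of 20 neighbours of Scpep1 were called between R7-III and R7-I, or 30% beside 8.41% of all genes, 3 higher and 3 lower beside 6.96% and 1.45%. They reached out to 1081 kb on one side and to 5013 kb on the other. Msi2, an RNA-binding protein gene 411 kb away, was read at 34.9 to 37.6 TPM in R7-I, 52.8 to 55.4 in R7-III and 56.5 to 63.3 in R7-II. It rose by 0.55 in R7-III (SE 0.0484, limma adjusted p 6.19e-05) and by 0.70 in R7-II (limma adjusted p 7.46e-07), the order of R7-I below both other clones that Scpep1 had. The ubiquitin ligase gene Trim25 (0.45, limma adjusted p 0.00295) and Akap1, an anchor of protein kinase A (0.25, limma adjusted p 0.00516), were higher as well. Mrps23, a mitochondrial ribosomal protein gene, fell by 0.28, the splicing factor gene Srsf1 by 0.17 and the nucleoside diphosphate kinase gene Nme2, 5013 kb away, by 0.17 (limma adjusted p 0.00188, 0.00337 and 0.00152). Coil, the coilin gene 43.0 kb above Scpep1, differed by 0.23 (limma adjusted p 0.0233). Calls near Scpep1 numbered 2 to 9 when 1 library was left out, with 2 without R7-III replicate 1 and 3 without R7-I replicate 1, R7-III replicate 2 or R7-III replicate 3.

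**Figure D5:**
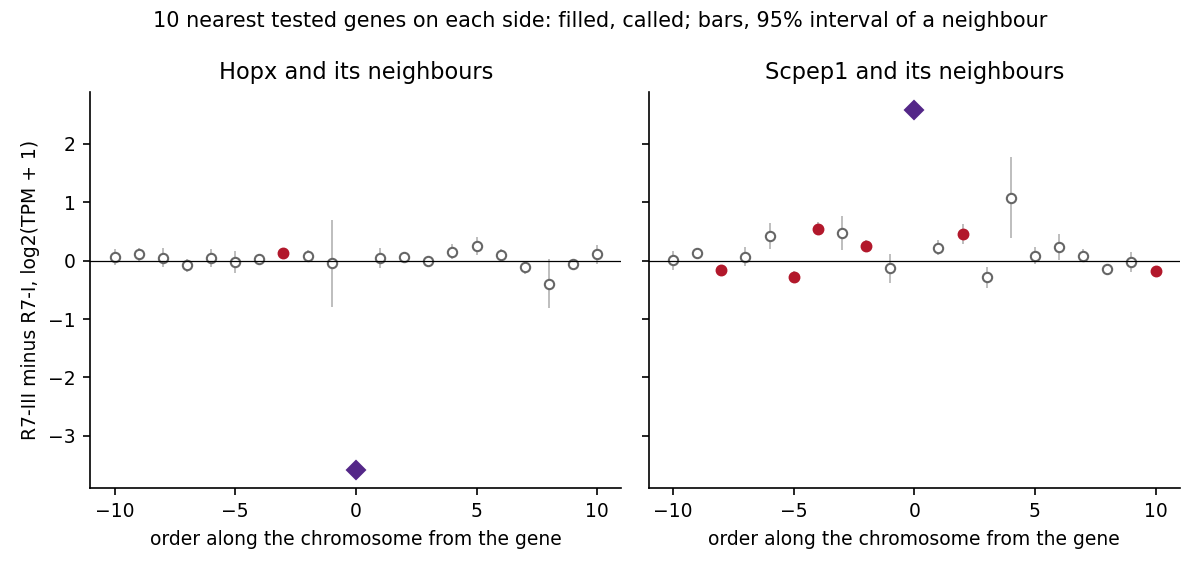
Log2 fold change of R7-III against R7-I for the 10 nearest tested genes on each side of Hopx (left) and Scpep1 (right), in their order along the chromosome, with the 95% interval as a bar and filled where called. The diamonds are Hopx at -3.58 and Scpep1 at 2.58, and every neighbour lies nearer to 0 than either.

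Each gene is overlapped by an antisense gene, and the libraries did not keep the strand, so reads from shared exon bases cannot be assigned. Hopxos shares 412 exon bases with Hopx, 27.2% of the exon bases of Hopx, and was not in the table. Scpep1os shares 96 exon bases with Scpep1, 4.58% of those of Scpep1. Scpep1os was read at 15.7, 14.1 and 10.6 TPM in R7-I, 16.2, 16.6 and 17.6 in R7-II, and 12.3, 11.5 and 12.2 in R7-III. R7-I and R7-III overlapped, with a log2 fold change of -0.13 (SE 0.111, limma adjusted p 0.454). R7-II differed from R7-I by 0.32 (limma adjusted p 0.0259). It lay above R7-III by 0.45 (limma adjusted p 0.00445), the reverse of Scpep1. That call held in 4 of 9 fits without 1 library. The ratio of Scpep1 to Scpep1os was 0.661 to 0.849 in R7-I, 2.59 to 3.31 in R7-II and 4.88 to 5.60 in R7-III.

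The sorted cells carried the RNA of CD8 T cells throughout. All 9 CD8 T cell markers were read in every library, summing to 2171 to 2254 TPM in R7-I, 3052 to 3187 in R7-II and 2232 to 2367 in R7-III. In R7-III against R7-I, 3 of the 9 were called, or 33.3% beside 8.41% of all genes, all higher in R7-III and named here after their values were seen. They were the CD3 chain genes Cd3d (0.19, limma adjusted p 0.00284), Cd3e (0.26, limma adjusted p 3.17e-04) and Cd3g (0.35, limma adjusted p 4.42e-05). The calls of Cd3e and Cd3g held in all 9 fits that left out 1 library, and that of Cd3d in 4. The part of this difference in the levels of Hopx and Scpep1 was not tested. The kinase gene Lck, the most abundant of the 9, and Cd8b1, the next, differed by -0.06 and 0.03 between R7-III and R7-I (limma adjusted p 0.368 and 0.691). The sign of Cd8b1 turned under the median of ratios. The 6 markers of NK cells, which can express Hopx, summed to 0.06 to 0.67 TPM, with Klra4, Klra7 and Klra8 at 0 in every library. The 6 dendritic cell markers summed to 1.77 to 3.23 TPM, with Clec9a at 0.

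The 4 markers of CD4 and regulatory T cells summed to 3.36 to 4.11 TPM in R7-I, 4.03 to 5.81 in R7-II and 5.62 to 8.01 in R7-III. The sums of R7-I and R7-III did not overlap, while that of R7-II overlapped both. Both ends of these ranges rose from R7-I through R7-II to R7-III, the order of the clones that Scpep1 had. By its means, none of the 4 markers alone had that order. The most abundant, Cd40lg, averaged 2.65 TPM in R7-I, 2.18 in R7-II and 5.41 in R7-III, a log2 fold change of 0.80 between R7-III and R7-I (limma adjusted p 0.0164) that passed with only those clones fitted (limma adjusted p 0.00613). Cd4 itself averaged 0.3 TPM in R7-I, 0.98 in R7-II and 0.377 in R7-III. Zbtb7b averaged 0.26, 0.743 and 0.593 TPM and Foxp3 0.423, 0.9 and 0.257 in the same order of clones, so these genes were highest in R7-II. The part of these cells in the Scpep1 level was not tested.

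Of 13 myeloid markers, the sum was 5.51 to 7.65 TPM in R7-I and 6.13 to 7.60 in R7-III, ranges that overlapped. In R7-II it was 24.4 to 84.7 TPM. The 7 B cell markers summed to 8.07 to 15.1 TPM in R7-I, 4.88 to 7.34 in R7-III and 34.0 to 70.5 in R7-II. The most abundant myeloid marker, Lyz2, averaged 0.45 TPM in R7-I, 1.89 in R7-III and 32.9 in R7-II. Between R7-III and R7-I it differed by 0.99 (limma adjusted p 0.0926), and it passed with only those clones fitted (limma adjusted p 0.00357). Cd79b, the most abundant B cell marker, averaged 3.54 TPM in R7-I, 2.23 in R7-III and 18.8 in R7-II. The part of these other cells in the Scpep1 levels was not tested.

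Read totals were not given with the TPM values, so no counting error could be attached to the low Hopx levels. Between 13738 and 14434 genes were read above 0 per library, and libraries of one clone correlated across genes at a Pearson r of 0.992 to 0.997.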

How the data were processed

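PolyA RNA libraries of the 9 samples were sequenced by the authors as 100-bp single-end reads without strand information and quantified with RSEM 1.2.11 on mm10 RefSeq genes. The deposited table held TPM per gene and library to 2 decimals, already scaled to 1 total in every library, so depth per library is unknown. The authors tested counts with DESeq2 1.8.1. Those counts were not used here, and TPM does not allow a count model.

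Values were transformed to log2(TPM + 1), genes with a maximum TPM above 1 were kept, and 1 model over all 9 libraries was fitted with limma 3.58.1 (lmFit, eBayes with trend) in R 4.3.3. P-values were Benjamini-Hochberg adjusted over all 11330 genes, and a gene was called at an adjusted p under 0.01. On data simulated for R7-III against R7-I with 200 of 11330 genes changed, 196 were recovered with 7 false calls. The planted changes were 2-fold or larger, lay in genes above a floor of abundance and left R7-II unchanged. The recovery therefore does not show how often smaller differences, such as most of those in the lists, would be called. Figures were drawn with matplotlib 3.10.9.

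Members and gene lists were chosen with earlier results of these data known, and no test was run on a list as a whole. The text names Srf, Hdac2, Itgae, Ctsa and Prcp in any case, the 3 called list members with the largest change between R7-III and R7-I and the 2 most abundant ones, the nearest and the called neighbours, the 5 nearest profiles and the leading markers of other cells. Tlr1, Hopxos, Rara, Rarg, Cd3d, Cd3e, Cd3g, Zbtb7b, Foxp3 and the genes listed at or near 0 were named after their values were seen. Sequences and positions came from RefSeq (GRCm38.p6), and exon overlaps from GENCODE M21, on the same build as mm10. Alternatives changed the pseudocount, filter, scaling, libraries fitted, trend, threshold and replicate block.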

Additional observations from a re-analysis of the deposited data

How the results depend on the processing

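Of 489 refits of the 26 main results, 415 kept the direction and side of the threshold or moved little, 70 moved, 3 fell below the threshold and 1 reversed. Of 1286 refits for single named genes, 1156 kept both, 95 lost a call, 16 gained one and 19 reversed. The cause was not tested for any of these.

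Hopx in R7-III against R7-I was -6.17 with a pseudocount of 0.1 and -1.74 with 5. Scpep1 in that contrast was 2.22 with a pseudocount of 5 and 2.47 under quantile normalization. Hopx in R7-II against R7-III turned to -0.0012 under quantile normalization. No value of Hopx could be had with TPM of at least 1 required in every library, since Hopx failed that filter. Scpep1 in R7-II against R7-III ran from -0.40 to -0.27 when 1 library was left out.

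Counts of list members called between R7-III and R7-I moved most. SRF genes numbered 2 with the filter of at least 1 TPM in every library, 3 with only the clones compared, 3 at an adjusted p of 0.05 and 1 to 3 without 1 library (2 without R7-I replicate 3 or R7-II replicate 2, 3 without R7-II replicate 3). Histone deacetylase genes numbered 1 without a filter, 1 under the median of ratios (Chd4, called lower, with 0 higher), 1 under quantile normalization, 0 without the trend, 7 at 0.05 and 0 to 3 without 1 library (0 without R7-I replicate 1 or any R7-III library, 1 without R7-I replicate 2), and for R7-II against R7-I 17 under the median of ratios. Residency genes numbered 1 without a filter, under the median of ratios (lower) and with only the clones compared, 3 at 0.05 and 0 to 1 without 1 library (1 without R7-II replicate 1 or 2). Cytotoxic genes numbered 1 without a filter, under the median of ratios and without the trend, 0 under quantile normalization and 1 to 2 without 1 library (1 without R7-I replicate 1 or 2 or any R7-III library). Lysosomal proteases numbered 3 at 0.05 and 1 to 2 without 1 library (2 without R7-I replicate 3 or R7-II replicate 1 or 2). Retinoid genes numbered 0 with a pseudocount of 5, without a filter, under quantile normalization and without the trend, and 0 to 1 without 1 library (0 without any R7-I or R7-III library). Neighbours of Hopx numbered 0 under the median of ratios and without the trend, 2 with only the clones compared and at 0.05, and 0 to 2 without 1 library (0 without R7-I replicate 1 or 2 or any R7-III library, 2 without R7-II replicate 3). Neighbours of Scpep1 numbered 2 without the trend, 12 at 0.05 and 2 to 9 without 1 library.

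Replicate numbers did not pair the libraries: correlations of deviations from the clone means were -0.0449 to 0.0888 for 9 pairs of one number and -0.0948 to 0.0649 for 18 others, and the own number was highest in 7 of 18 cases. With the replicate block, 733 genes were called between R7-III and R7-I in place of 953, and list counts were 1 for histone deacetylase and for cytotoxic genes, 0 for retinoid genes and 0 for the neighbours of Hopx. The block changed no call of Scpep1.

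Small uncalled differences of R7-III against R7-I changed sign. Under quantile normalization Actb was 0.038, Actg1 0.058, Ctsz -0.014 and Rest -0.049, and under the median of ratios Ctsz was -0.048, Rest -0.0038 and Cd8b1 -0.026. Arl9 was 0.011 with a pseudocount of 5. Without 1 library, Actb ran from -0.025 to 0.023, Actg1 from -0.027 to 0.016, Ctsz from -0.018 to 0.050 and Arl9 from -0.12 to 0.30. Of the calls over all genes, 82.8%, 72.4% and 66.4% were higher for R7-III against R7-I, R7-II against R7-I and R7-II against R7-III, and 56.6%, 46.1% and 46.8% under the median of ratios (62.6%, 45.9% and 49.3% under quantile normalization).

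TPM carry no depth, and no limit of detection was set for Hopx in R7-II and R7-III. Each clone is 1 mouse line with 3 libraries, and line, receptor and affinity cannot be told apart.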
